A study of Vulpes vulpes with 8 samples.

Results

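Complement is a set of plasma and tissue proteins that tag microbes and damaged cells and draw in leukocytes. In its classical pathway C1q, built from chains A, B and C, binds a target and turns on the proteases C1r and C1s, which cleave C4 and C2 and so lead to the cleavage of C3. C3 fragments coat the target, factor B (CFB) amplifies the step through the alternative pathway, and C7 is 1 of the proteins of the terminal pore, while the C1 inhibitor (SERPING1) shuts C1r and C1s down. Macrophages and dendritic cells are the main makers of C1q in tissues, and fibroblasts, endothelium and epithelium make several of the other components. In humans, gain of function in C1R or C1S causes a form of Ehlers-Danlos syndrome with early loss of the tissue around the teeth.

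These genes were followed in the gingiva of 8 red foxes (Vulpes vulpes) with or without hereditary hyperplastic gingivitis (HHG), an inherited overgrowth of the gum, on Affymetrix Canine 2 arrays, with 1 array per fox. The affected foxes were 19, 55 and 107 (males) and 381 and 757 (females), and the unaffected foxes were 86 and 97 (males) and 402 (female). HHG had been diagnosed from red, raised and granular gum along the teeth. Pieces came from foxes euthanised in pelting season or from anaesthetised foxes after whelping, and the labels give neither the season nor the age of each fox. Of the 9 complement symbols chosen (C1QA, C1QB, C1QC, C1R, C1S, C3, C7, CFB and SERPING1), 8 had at least 1 probe set annotated with that symbol alone, 24 probe sets in all, among the 42924 of the array table that are not controls, or 8 of 15115 genes. CFB was not analysed here, because no probe set carried its symbol. The array holds dog sequences, so fox RNA was read through a related species, and 16 of the 24 probe sets have IDs ending in _s_at, a class whose probes can match more than 1 transcript.

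Values are the authors' MAS5 signals, a linear intensity per probe set, and differences are on the scale of log2(signal + 16), which understates those of dim probe sets. The trimmed mean signal was 150.0 on each array, the median 28.7 to 33.8, and the background, the 95th percentile of 42 bacterial control probe sets, 7.42 to 16.6. The 60% of probe sets with the highest mean were tested, 25754 in all. They included 20 of the 24 complement probe sets, which stand for 7 genes; both probe sets of C7 and 2 of the 6 of C3 were too dim. In the gingiva, 8 of 9 measured keratinocyte markers and 9 of 12 fibroblast markers lay above background on every array. Among 6 measured hepatocyte markers only SERPINA1 and AHSG were bright enough to be tested, and ALB, albumin, was not above background in 4 affected foxes and 1 unaffected fox.

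The first question was whether complement genes differ between affected and unaffected gingiva. For all 7 genes the groups overlapped, as affected fox 19 read lowest of the 8 foxes and unaffected fox 86 read highest or close to it. For C1R the groups overlapped without these foxes too: affected fox 381 read below unaffected foxes 97 and 402, and affected fox 107 above them. The other affected foxes mostly read above unaffected foxes 97 and 402. By limma 0 of the 20 complement probe sets passed at an adjusted p under 0.05, against 0% of all probe sets tested, and the adjusted p was 0.9999 for each. At an unadjusted p under 0.05 there were again 0 of 20, against 2.69% of all, with a smallest p of 0.268. In 0 of 20 did the groups separate without overlap, against 2.43% of all.

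**Figure D1:**
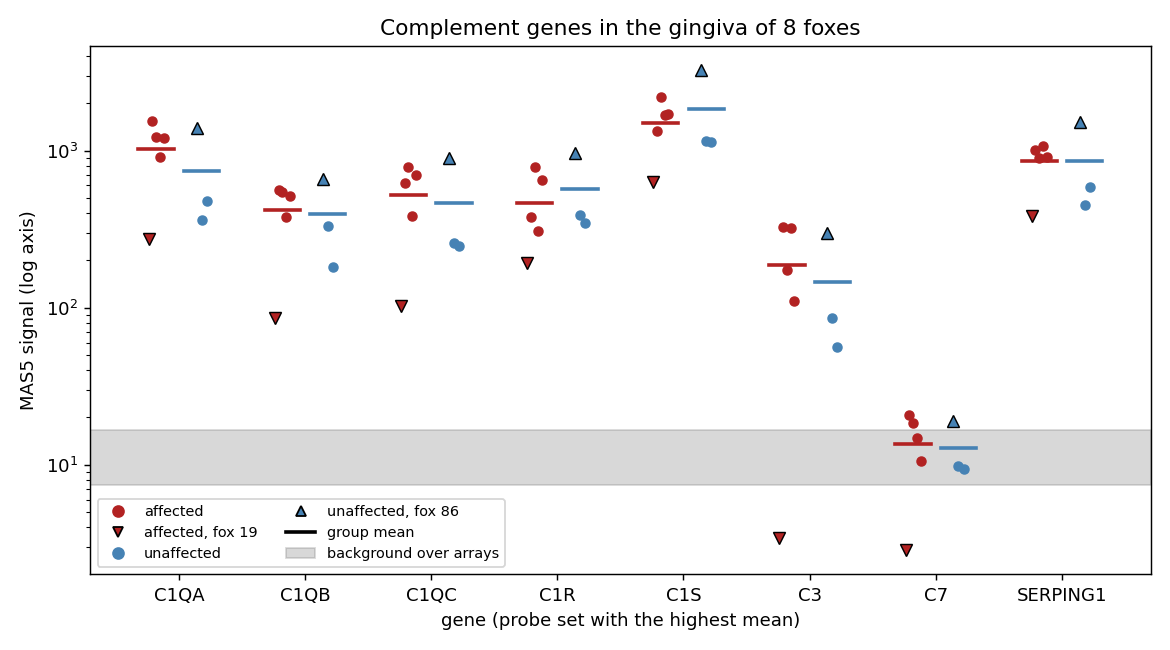
MAS5 signal (log axis) of each complement gene in each fox, for the probe set with the highest mean; bars are group means, triangles mark affected fox 19 and unaffected fox 86, and the grey band is the range of background over the arrays. Fox 19 is the lowest point for each gene, and C7 lies around background.

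The C1q chains come first. C1QA, the A chain, read 274, 1536, 1225, 911 and 1199.5 in affected foxes 19, 55, 107, 381 and 757, against 1395, 361 and 479.8 in unaffected foxes 86, 97 and 402. Apart from fox 19 every affected fox read above unaffected foxes 97 and 402, while unaffected fox 86 lay among the affected foxes. C1QA averaged 1029 ± 477 over the 5 affected foxes and 745 ± 566 over the 3 unaffected foxes (SD). That is a log2 difference of 0.51 ± 0.57 (SE), with a 95% interval of -0.76 to 1.78, and the second C1QA probe set gave 0.45. Left out in turn, fox 19 gave 0.92 and fox 86 gave 1.08, while without unaffected fox 97 the difference was 0.12.

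C1QB, the B chain, read 85.9, 565, 543, 381 and 517 in affected foxes 19, 55, 107, 381 and 757, against 664, 331 and 183 in unaffected foxes 86, 97 and 402. The affected mean was 418 ± 199 (SD, n = 5) and the unaffected mean 392 ± 246 (SD, n = 3). The log2 difference of 0.04 ± 0.59 (SE) has an interval of -1.27 to 1.35. C1QC, the C chain, read 103, 619, 784, 385 and 702 in the affected foxes in the same order, against 895, 260.0 and 245 in the unaffected foxes. Its difference was 0.14 ± 0.64 (SE), interval -1.28 to 1.56, and the dimmer C1QC probe set gave 0.15. For both chains the highest fox was unaffected and the lowest affected. Without unaffected fox 402 the differences were -0.39 for C1QB and -0.17 for C1QC, and without fox 19 they were 0.51 and 0.62. In the fox gene table of RefSeq assembly VulVul3 the genes of the 3 chains are next to each other, with 0 other genes between C1QB and C1QC or between C1QC and C1QA.

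The C1 proteases had slightly lower means in affected foxes. C1R read 193, 378, 785, 306 and 653 in affected foxes 19, 55, 107, 381 and 757, against 966, 388 and 348 in unaffected foxes 86, 97 and 402. Affected foxes 107 and 757 read above unaffected foxes 97 and 402, and affected foxes 19 and 381 below them. The difference was -0.30 ± 0.47 (SE), interval -1.34 to 0.75, and -0.37 in the second probe set. C1S, whose gene lies next to that of C1R with 0 genes between, read 633, 1335, 2192, 1689.5 and 1700.0 in the same affected foxes, against 3265, 1152 and 1135 in the unaffected foxes. Unaffected fox 86 read above every affected fox, and 4 of the 5 affected foxes read above the other unaffected foxes. The C1S difference was -0.21 ± 0.45 (SE), interval -1.21 to 0.78, and its 4 probe sets ranged from -0.43 to -0.21. Without fox 86 the differences were 0.16 for C1R and 0.29 for C1S, and without fox 19 they were -0.04 and 0.07.

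C3 is the protein on which the activation routes of complement converge. Its brightest probe set read 3.43, 327, 173, 319.7 and 109.6 in affected foxes 19, 55, 107, 381 and 757, against 298, 86.3 and 56.3 in unaffected foxes 86, 97 and 402. Fox 19 was not above background there or in 2 of the other 3 tested C3 probe sets; in the remaining 1 its signal was 29.6, with the other affected foxes at 65.7 to 171 and the unaffected foxes at 58.1 to 182, a 6.14-fold range over the 8 foxes. The 4 tested probe sets differed between the groups by -0.08 to 0.08 on the log2 scale. For the brightest, 0.08 ± 0.88 (SE) comes with an interval of -1.88 to 2.04, so a difference of 3-fold in either direction lies within it. Without fox 19 it was 0.79, without fox 86 0.70, and without unaffected fox 402 -0.36; with an offset of 1 in place of 16, which spreads the values of dim probe sets, it was -0.22.

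C7 read 2.85, 20.9, 18.3, 14.8 and 10.5 in the affected foxes in the same order, against 18.9, 9.84 and 9.41 in the unaffected foxes, with 2 affected foxes not above background and no test. The second C7 probe set read 3.12, 9.69, 19.3, 1.80 and 10.6 in the same affected foxes, 4 of them not above background, against 23.5, 15.1 and 19.1 in the unaffected foxes, all above it. Affected fox 107 alone reached the range of the unaffected foxes. With no filter on dim probe sets, that probe set differed by -0.54 (unadjusted p = 0.0435 in limma, where 3.47% of all 42924 had an unadjusted p under 0.05; adjusted p = 0.9999), and the first C7 probe set by 0.02.

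SERPING1, the inhibitor of C1r and C1s, read 384, 1012, 903, 1068 and 911 in affected foxes 19, 55, 107, 381 and 757, against 1529, 453 and 583 in unaffected foxes 86, 97 and 402. Of the affected foxes 4 lay close together, fox 19 below them, and unaffected fox 86 above all. SERPING1 averaged 856 ± 272 over the 5 affected foxes and 855 ± 587 over the 3 unaffected foxes (SD), and the difference was 0.12 ± 0.43 (SE), interval -0.83 to 1.08. The 5 SERPING1 probe sets ranged from -0.14 to 0.21. Without fox 86 the difference was 0.64, and without unaffected foxes 97 and 402 it was -0.22 and -0.05.

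Over the 7 genes tested, 5 had a higher and 2 a lower mean in affected foxes, with a median difference of 0.08, where 45.3% of all 10824 genes tested were higher and the median was -0.03. Over the probe sets 11 were higher and 9 lower. The standard errors of the 20 probe sets ran from 0.37 to 0.88, each above the median of 0.23 over all probe sets tested. Which fox was left out set the sign of most of them: 19 of the 20 were above 0 without unaffected fox 86, and 2 of the 20 without unaffected fox 402. The number of arrays limits the precision of these differences.

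**Figure D2:**
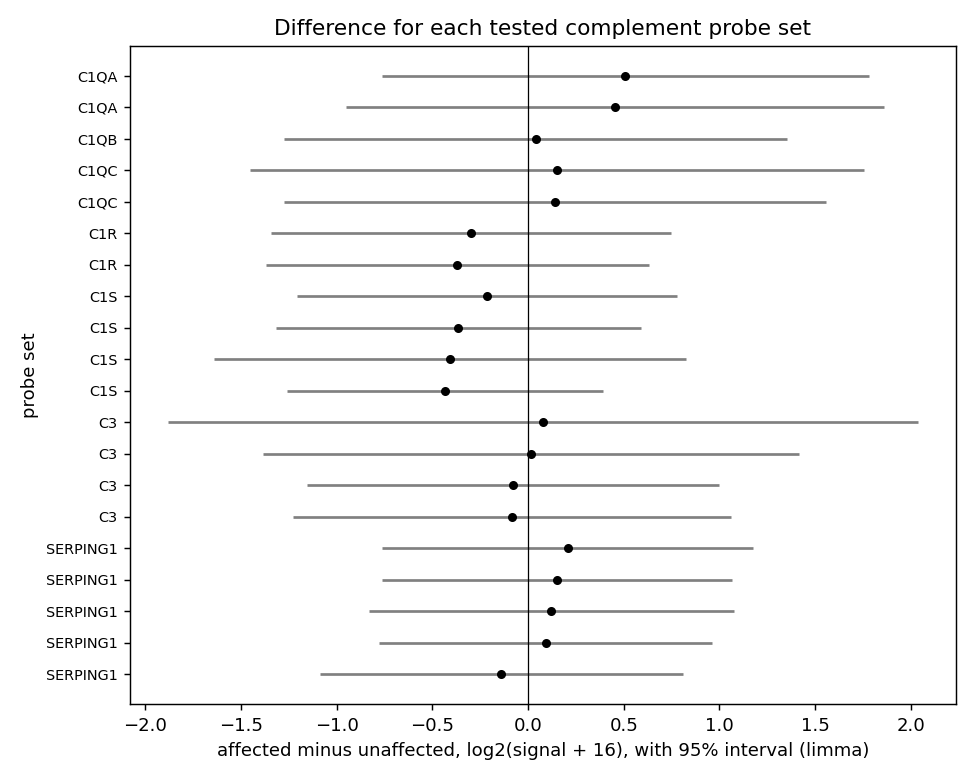
Difference between affected and unaffected foxes on the log2(signal + 16) scale for the 20 tested complement probe sets, with 95% intervals from limma (bars). Each interval spans 0, and C1QA lies farthest to the right.

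**Figure D3:**
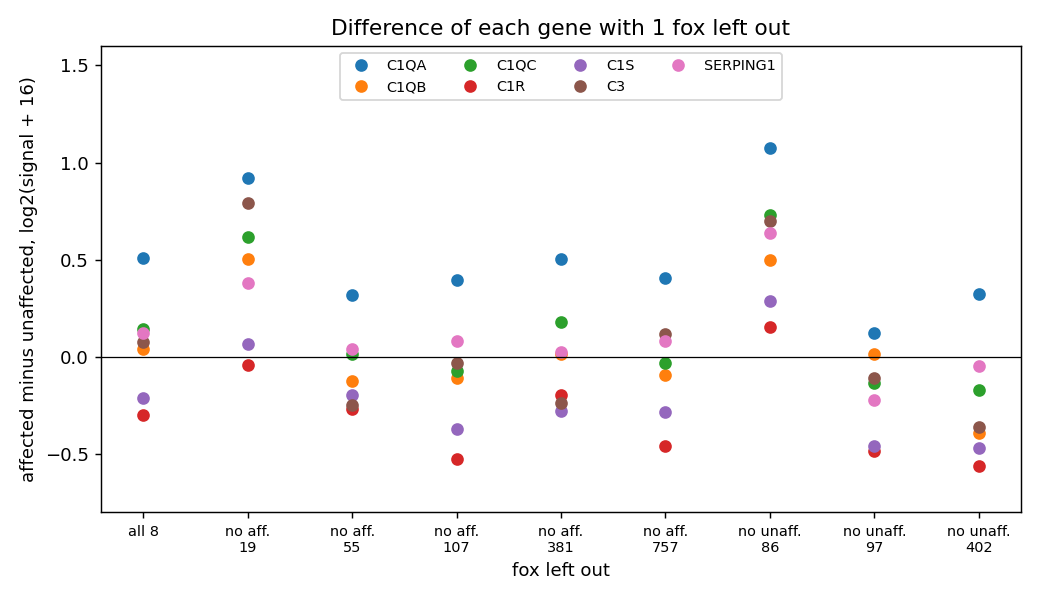
Difference between affected and unaffected foxes for 7 complement genes with all 8 foxes and with each fox left out in turn, on the log2(signal + 16) scale. Points move up most when affected fox 19 or unaffected fox 86 is left out, and C1QA alone stays above 0 throughout.

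The foxes at the extremes were mostly the same over the complement probe sets. Fox 86 read highest in 18 of the 20 complement probe sets, where it is highest in 17.7% of all probe sets tested, and fox 19 read lowest in 16, where it is lowest in 14.7%. Both held in 14 probe sets, against 4.53% of all. Probe sets of 1 gene share their target and are not independent. From the lowest to the highest fox, signal differed 5.60-fold for C1QA, 7.72-fold for C1QB, 8.67-fold for C1QC, 5.01-fold for C1R, 5.16-fold for C1S and 3.98-fold for SERPING1. The mean of the 7 genes, each centred over the 8 foxes on the log2 scale, was -1.62, 0.50, 0.60, 0.23 and 0.39 in affected foxes 19, 55, 107, 381 and 757, against 1.02, -0.50 and -0.62 in unaffected foxes 86, 97 and 402.

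**Figure D4:**
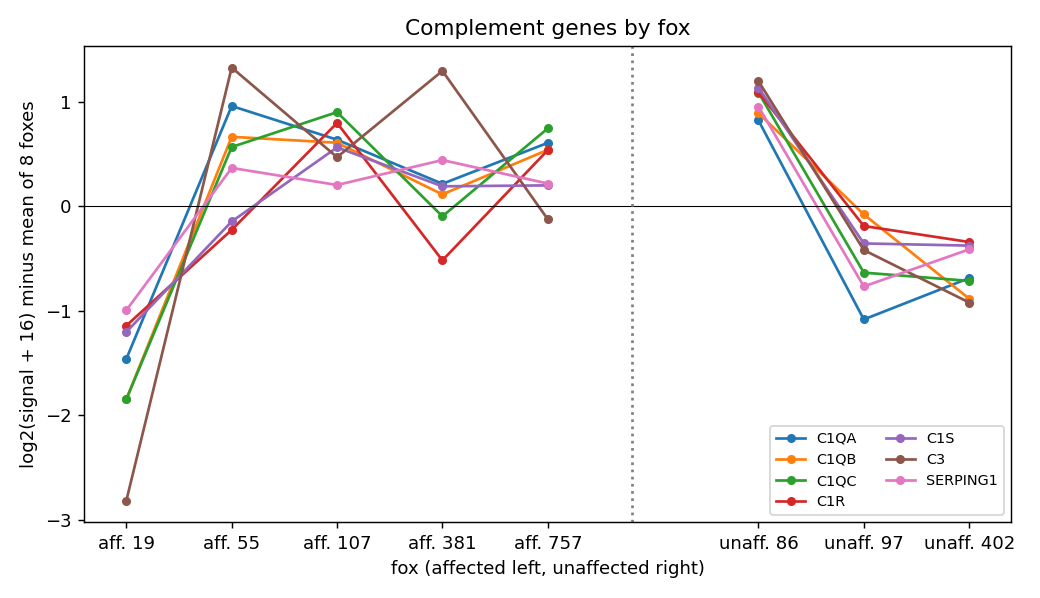
Level of 7 complement genes in each fox, as log2(signal + 16) minus the gene's mean over the 8 foxes, with affected foxes on the left and unaffected foxes on the right. The lines run together, lowest in affected fox 19 and highest for most genes in unaffected fox 86.

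Whether the genes vary together over the foxes was asked for the 21 pairs of tested genes. Pearson's r ran from 0.58 to 0.96 (median 0.88, n = 8 foxes) and Spearman's rho from 0.31 to 0.98. By two-sided exact permutation tests adjusted over the 21 pairs, 18 passed an adjusted p of 0.05 for r and 12 for rho. How often pairs of other tested genes would pass was not computed, so these counts do not set complement apart from other genes. C1QB and C1QC gave r = 0.96 (exact permutation p = 9.92e-05, adjusted p = 0.00208, n = 8) and rho = 0.93 (exact permutation p = 0.00223, adjusted p = 0.0156), and r = 0.96 without the 2 foxes farthest from the median of C1QB. C1R and C1S gave r = 0.90 (exact permutation p = 0.00273, adjusted p = 0.00625, n = 8) and rho = 0.83 (exact permutation p = 0.0154, adjusted p = 0.0359), and r = 0.77 without 2 foxes. The lowest pair was C1R with C3, at r = 0.58 (exact permutation p = 0.134, adjusted p = 0.134, n = 8) and rho = 0.31 (exact permutation p = 0.462). Without the 2 foxes farthest from the median of the first gene, r ran from 0.36 to 0.98 over the pairs. Without fox 19 alone r ran from 0.17 to 0.92 and only 1 of the 21 pairs passed, so most of these calls rest on that fox. All genes of a fox share 1 piece of tissue and 1 array, and the sets split by 5' actin signal, described further on, hold only 4 foxes each, too few for a value within them.

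Sex was looked at next. With a term for disease, males minus females differed by -0.19 to 0.44 over the 20 complement probe sets (smallest p = 0.577 in limma, not an exact test). By limma 0 passed, against 0.00388% of all, and 0 had an unadjusted p under 0.05, against 2.29% of all. The disease difference in males minus that in females was below 0 in all 20, from -2.24 to -0.83 with a median of -1.45, where 54.1% of all probe sets tested lay below 0. Of these 0 passed in limma (smallest adjusted p = 0.9999), against 0% of all, and 0 had an unadjusted p under 0.05, against 2.48% of all. Only 1 unaffected fox is female, and foxes 19 and 86 are both male. For a fit within females only the differences are given, because 1 fox is unaffected. Both affected females read above unaffected fox 402 for 6 of the 7 genes, with differences from 0.35 for C1R to 1.51 for C3. All 20 probe sets were above 0 in females, with a median of 1.01. Within males the differences ran from -0.73 for C3 to 0.18 for C1QA, and 1 of the 20 probe sets was above 0, with a median of -0.58. For the difference between the sexes in the disease effect, the median over the 20 probe sets was -2.18 without unaffected fox 97, -0.99 without fox 19 and -0.73 without fox 86, where 19 of 20 were below 0. The smallest unadjusted p of the 20 in limma was 0.0103 without fox 97, 0.0291 without fox 55, 0.0394 without fox 107 and 0.0397 without fox 19. It was 0.0991 without fox 381, 0.102 without fox 757 and 0.172 without fox 86. Over all 25754 probe sets, 1471 had an unadjusted p under 0.05 in limma without fox 97, against 639 with all foxes. The smallest adjusted p of the complement probe sets over the 7 leave-outs that could be fitted was 0.871.

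RNA quality was read from array controls for actin. The 5' end of actin relative to its 3' end, as a log2 ratio, averaged -1.77 ± 1.02 over the 5 affected foxes and -1.08 ± 0.65 over the 3 unaffected foxes (SD; exact permutation test, two-sided, p = 0.321). Foxes 107, 757, 86 and 97 had high 5' actin, and foxes 19, 55, 381 and 402 low. Within the high set C1QA differed between the groups by 0.75 and within the low set by 0.59, and C1S by -0.01 in each. C1R differed by 0.22 in the high set and -0.29 in the low set, and C3 by -0.22 and 0.86.

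The rest of the complement system was described from a list of 46 further genes, of which 31 had a probe set and 19 were tested. Of these 14 had higher and 5 lower means in affected foxes (median 0.06), where 45.3% of all genes tested were higher. In limma 0 passed (adjusted p = 0.9999), against 0% of all probe sets tested. At an unadjusted p under 0.05 there were 0 as well, against 2.69% of all. COLEC12, a collectin that acts as a scavenger receptor, differed by 0.48 ± 0.25 (SE) and was not above background in 1 unaffected fox. CLU, clusterin, which binds terminal complexes in the fluid phase, averaged 9724 ± 1945 over the 5 affected foxes and 7476 ± 2366 over the 3 unaffected foxes (SD), a difference of 0.40 ± 0.25 (SE). ITGAM, a chain of complement receptor 3, differed by 0.43, and FCN2, a ficolin of the lectin pathway, by 0.27.

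On the lower side C1QBP, which binds the heads of C1q and sits largely in mitochondria, differed by -0.39 ± 0.19 (SE), although its second probe set gave -0.05. CD59, which blocks the terminal pore on host cells, differed by -0.19, CPN1, a subunit of the enzyme that trims anaphylatoxins, by -0.11, and CFP, properdin, by -0.11. The second probe sets of CD59 and CPN1 gave -0.30 and 0.12. Of terminal components, C5, C6, C8G and C9 were too dim to be tested, C8A differed by 0.18 (its other tested probe set by -0.51) and C8B by -0.03.

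Over the foxes, fox 86 read highest for 8 of these 19 genes, against 17.7% of all probe sets tested, and fox 19 lowest for 6, against 14.7%. CFD, the protease that cleaves factor B, and CFI, which cleaves C3b, were chosen as examples after their values were seen. CFD read 359, 502, 901, 786 and 753 in affected foxes 19, 55, 107, 381 and 757, against 1063, 369 and 436 in unaffected foxes 86, 97 and 402. CFI read 23.3, 162, 175, 168 and 279.8 in the same affected foxes, against 319, 67.1 and 94.2 in the unaffected foxes. CD59 ran the other way, at 1385, 609.9, 682, 1316 and 569 in the affected foxes, against 546, 1098 and 1497 in the unaffected foxes, so that fox 86 was its lowest and unaffected fox 402 its highest.

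Markers of cell types were set beside the complement genes. In bulk tissue, fewer cells of a type and less RNA per cell cannot be told apart. The 6 T cell markers tested, of 8 measured, were each highest in fox 86 and each lowest in fox 19. The summed signal of all 8 spanned 128 to 944 among affected foxes, against 273 to 1692 among unaffected foxes. The 3 tested markers of B and plasma cells were highest in fox 86 too. Their mean centred level was lowest in unaffected fox 97, at -1.22, with fox 19 at -1.13. Macrophage markers (12 of 12 measured, 10 tested) were highest in fox 86 for 6 genes and lowest in fox 19 for 5. One of them, CD163, was highest in fox 19, at 105. The mean centred level of the tested macrophage markers was lowest in fox 97, at -0.85, with fox 19 at -0.55. The macrophage sum spanned 2395 to 6702 among affected foxes, against 2150 to 7480 among unaffected foxes. Of 10 tested fibroblast markers 7 were highest in fox 86 and 1 lowest in fox 19. The fibroblast sum spanned 14339 to 33450.0 among affected foxes, against 10988 to 37025 among unaffected foxes. Endothelial markers were highest in fox 86 for 6 of 7.

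Keratinocyte markers had another order of foxes. Their mean centred level was 0.53, -0.84, 0.10, 0.23 and -0.09 in affected foxes 19, 55, 107, 381 and 757, against -0.81, 0.52 and 0.36 in unaffected foxes 86, 97 and 402. For T cells it was -1.52, 0.58, 0.25, -0.07 and 0.56 in the affected foxes in the same order, against 1.48, -0.77 and -0.52 in the unaffected foxes. The keratinocyte level of fox 19 rested largely on KRT10, a keratin of cornifying layers, at 5124 in fox 19 and 44.4 to 2455 in the other 7 foxes. Without KRT10, left out after its values were seen, the other 8 markers averaged 0.11 in affected fox 19 and -0.60 in unaffected fox 86. Among those 8, EPCAM was lowest of all foxes in fox 19, at 1278, and DSP was highest there, at 6971. Affected fox 55 was low in keratinocyte markers and in fibroblast markers (-0.60), with a mean complement level of 0.50. It read highest in the brightest probe sets of C1QA and C3, and lowest in 3 of the 20 complement probe sets, which belong to C1R and C1S. Between the groups the median difference was 0.19 for macrophage, 0.17 for fibroblast, -0.07 for T cell and -0.20 for keratinocyte markers. In limma 0 members of each passed (adjusted p = 0.9999). At an unadjusted p under 0.05 there were 1 macrophage marker and 0 of the others in these lists, against 2.69% of all. The macrophage marker, named after its values were seen, was CD68, at 1.07 (unadjusted p = 0.0118 in limma). CD68 read 297 to 390 in affected foxes, against 67.6 to 284 in unaffected foxes, and its second probe set differed by 0.31. Neutrophil markers were higher in affected foxes in 5 of 5 tested, with a median of 0.10, 0 called and 2 at an unadjusted p under 0.05, against 2.69% of all. Those 2, named after their values were seen, were the granule protein LTF, at 1.28, and the protease MMP9, at 1.23. The rest of those tested differed little: CSF3R by 0.06 ± 0.53, S100A8 by 0.06 ± 0.16 and S100A9 by 0.10 ± 0.17 (SE). CSF3R was not above background in 1 affected and 1 unaffected fox. The other measured neutrophil markers, MPO, ELANE and MMP8, were too dim to be tested. Mean signal in affected against unaffected foxes was 2.24 against 6.01 for MPO and 13.3 against 15.5 for MMP8. For ELANE, at or below background on all arrays, it was 2.61 against 2.08. Endothelial markers had a median of -0.15, the 3 of B and plasma cells 0.03, and the red blood cell, hepatocyte and skeletal muscle lists had 1, 2 and 1 genes tested, with medians of 0.16, 0.31 and 0.17 and 0 called. The part of these cell types in the complement levels was not tested.

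**Figure D5:**
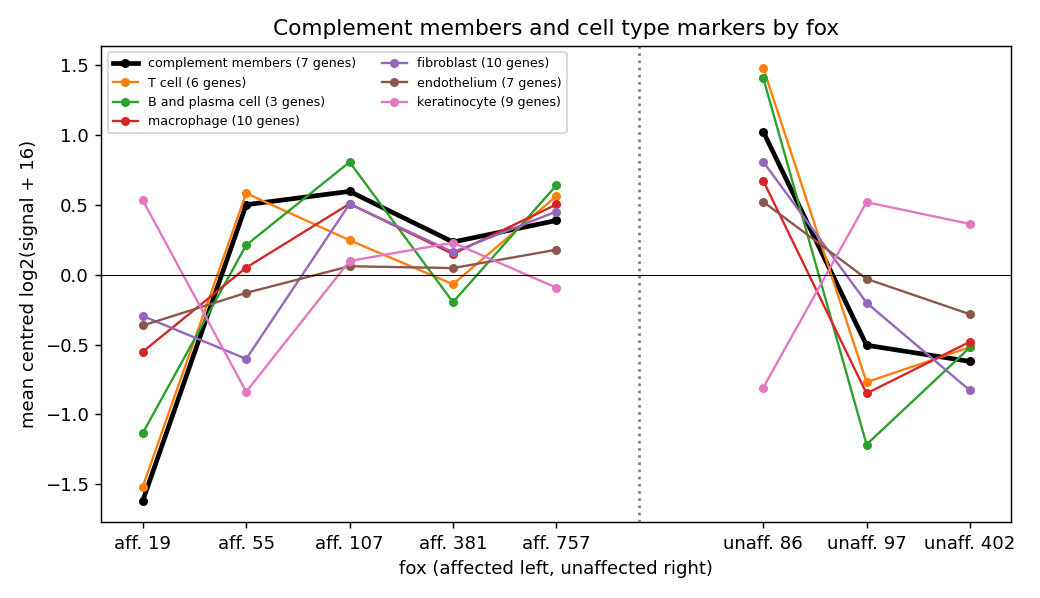
Mean centred log2(signal + 16) of 7 complement genes (black) and of 6 lists of cell type markers in each fox, affected foxes on the left and unaffected foxes on the right. Complement, T cell and endothelium lines are lowest in affected fox 19 and highest in unaffected fox 86. The keratinocyte line is low in fox 86, and its high point in fox 19 rests largely on KRT10.

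Genes of similar profile were named by their root mean square difference from a complement gene over the 8 foxes, each profile centred on the log2 scale. The search covered 10491 tested genes. Nearest to the mean of the C1q chains were STEAP2 (0.164), CORO1A (0.213) and LAPTM5 (0.236), where the chains' own spread over foxes was 0.881 (SD). The own spread of the others was 0.697 for C1R, 0.654 for C1S, 0.620 for SERPING1 and 1.33 for C3 (SD), so distances are not on 1 footing between genes. Nearest to C1R were FCGRT (0.158), PLAAT4 (0.214) and ANXA6 (0.215), and to C1S IFI30 (0.198), CSGALNACT1 (0.210) and TRAF3IP3 (0.211). For SERPING1 they were TNFRSF14 (0.164), ITM2C (0.182) and CD86 (0.182). For C3 the nearest were PCSK1 at 0.464, CYP2A13 at 0.481 and PTGER4 at 0.550.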

How the data were processed

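RNA from the gingiva of 5 affected and 3 unaffected foxes was hybridised to Affymetrix Canine 2 arrays. The deposited values are linear intensities, the MAS5 signal per the submitters' processing notes (no version or scaling target was found in the labels). Here log2(signal + 16) was taken with no further normalization, 111 control probe sets and the 40% of the others with the lowest mean were left out, and limma 3.58.1 in R 4.3.3 was fitted over 25754 probe sets (group alone; group and sex; their product) with Benjamini-Hochberg adjustment at 0.05. Fits were tested on simulated data. Symbols came from the platform annotation (29254 probe sets with 1, 439 with several, 13231 with none). Each gene was represented by its brightest probe set on average. All 9 complement symbols were named with every probe set; of other complement genes the 4 with the smallest p in each direction; and the 3 nearest profiles, passing over LOC and ENSCAFG symbols. Members and lists were chosen with earlier results of these data known. Pairs were counted over the 7 tested genes. Alternatives covered the offset, normalization, filter, sex, actin ratio, array weights, prior, probe set choice and each fox left out; fits within the actin sets and in females alone were added after seeing the data. Lists of red blood cell, hepatocyte, skeletal muscle and neutrophil markers were counted too. Each array is 1 fox, and the season of each was not analysed here.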

Additional observations from a re-analysis of the deposited data

Results flagged for a closer look

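Within the 5 affected foxes, fox 19 stood apart from the others for 2 of the 8 complement genes examined this way, where chance gives about 1 in 20 groups. C1QB read 85.9 in fox 19, with a gap to the next affected fox of 0.781 of the affected range on the log2 scale, above the critical value of 0.71. SERPING1 read 384 in fox 19, with a gap of 0.834 of that range. The 8 genes vary together over the foxes, so they are not independent, and C7 among them lay around background. Fox 19 read lowest in 14.7% of all probe sets tested. How often it stood apart in this way over all genes was not computed.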

How the results depend on the processing

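The count of probe sets called between affected and unaffected foxes was 0 in the main fit and under each alternative with more than 1 unaffected fox. No complement gene passed in any of these, nor among sex interactions (smallest adjusted p = 0.871 in limma, without unaffected fox 97). C1QA kept its direction throughout, from 0.12 to 1.08 with 1 fox left out. With 1 fox left out C1QB ran from -0.39 to 0.51, C1QC from -0.17 to 0.73, C1R from -0.56 to 0.16, C1S from -0.47 to 0.29, C3 from -0.36 to 0.79 and SERPING1 from -0.22 to 0.64. In males alone C1QB was -0.60, C1QC -0.35, C3 -0.73 and SERPING1 -0.23. In females alone C1R was 0.35 and C1S 0.57. With the actin ratio as a covariate C1R was 0.13 and C1S 0.064, and with array weights C1R was 0.095 and C1S 0.17. C1R was 0.22 and C3 -0.22 in foxes of high 5' actin. C3 was -0.22 with an offset of 1 and -0.017 as a mean of its probe sets. The cause of these reversals was not tested. Between sexes 1 probe set was called, and 1 to 2 with 1 fox left out (2 without affected fox 55). Of 21 pairs of complement genes 18 passed, and 1 to 20 with 1 fox left out (1 without affected fox 19). The sex interaction could not be fitted without unaffected fox 402. The foxes of low 5' actin and the females each include 1 unaffected fox, assumed to vary like the others. Signal over background limits C7 and the dim C3 probe sets.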
